A study of Homo sapiens with 10 samples.

Results

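A-485 blocks the acetyltransferase activity of CBP and p300, and it was compared with its vehicle DMSO in K562 cells by SLAM-seq. The comparison takes 4 of the 10 libraries of the study, 2 from cells given A-485 and 2 from cells given DMSO, and covers all 59204 human genes listed in the count tables. K562 is an established line from a chronic myeloid leukemia that expresses many red cell and platelet lineage genes. Per the labels, cells received 1 µM A-485 or DMSO for 2 h, and 100 µM 4-thiouridine was present during the last 1 h in both groups. Newly made RNA takes up the uridine analog, and chemical conversion turns its positions into T-to-C changes, so reads that carry such changes (labelled counts) come from RNA made in that hour, and all reads together (total counts) come from the whole mRNA pool. The study also holds 2 libraries each for JQ1 (1 µM), AZ-5576 (1 µM) and actinomycin D (1 µg/mL), given for the same time. JQ1, which displaces BET bromodomain proteins from acetylated chromatin, is used below as the nearest other drug. All groups are the same cell line after a short exposure, and the labels do not say whether the 2 libraries of a group came from separate cultures, so p-values measure only the spread between these libraries, which may be technical.

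CBP (gene CREBBP) and p300 (gene EP300) are closely related coactivators. Sequence-specific transcription factors bring them to enhancers and promoters, where they acetylate histone tails and other chromatin and transcription proteins. Bromodomain proteins bind acetylated lysines. In erythroid cells, GATA1, KLF1 and NF-E2 are known to bind CBP or p300, and many erythroid genes are driven by strong distal enhancers.

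Drosophila RNA had been added to the purified human RNA at 5%, and each library was scaled to its spike-in total. Levels therefore relate to the amount of RNA put in, and a change in cell number or in whole RNA per cell would not show. DMSO libraries held 448401 and 434411 labelled counts, and A-485 libraries held 411716 and 447455. Per 1000 spike-in counts this was 237 and 239 in DMSO and 209 and 225 with A-485, so both A-485 libraries were lower and the group mean was 91.4% of DMSO (237.8 ± 1.72 against 217.2 ± 11.7, SD, n = 2 each). Total human counts were 8.59 ± 0.571 per spike-in count in DMSO and 8.42 ± 0.0841 with A-485, with overlapping libraries. Because the spike-in was added at a fixed share of the RNA, this ratio does not show whether RNA per cell changed. With 2 libraries a group the smallest two-sided permutation p is 0.33, and none is given for these measures. The labelled background, taken from actinomycin D libraries in which RNA synthesis is blocked, was 0.303% of the DMSO level. All 20 erythroid identity markers of K562 had at least 10 total counts in both libraries of each group, and their summed level was 8645 and 8807 counts per 1000000 human counts in DMSO and 7643 and 7844 with A-485. Of 43 markers of lymphoid, myeloid and non-blood cells 10 did so in DMSO and 12 with A-485. Their summed level was 167 and 175 in DMSO and 157 and 154 with A-485 on the same scale. The lymphoid and myeloid markers CD8A, MS4A1, LCK, MPO and ELANE were at 0 in all 4 libraries.

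Under spike-in scaling, labelled RNA was called changed at a small set of genes, and nearly always downward. Among 7996 genes tested, 389 (4.86%) were lower with A-485 and 13 (0.163%) were higher at an adjusted p under 0.05. The median log2 fold change over all tested genes was -0.09, and the median of the 389 lowered genes was -2.09. The falls that were called were large: 368 of the 389 were over 2-fold, 209 over 4-fold and 93 over 8-fold. Together the 389 genes gave 24.1 labelled counts per 1000 spike-in counts in each DMSO library and 7.44 and 7.51 in the A-485 libraries. The difference of -16.6 is most of the whole difference of -20.6. The 7594 genes that were not called stood at 98.4% of DMSO on average. Their sums were 200.5 and 203.1 in DMSO and 190.6 and 206.4 with A-485, 1 below and 1 above both DMSO libraries. The calls themselves chose the first set, so these sums are a description. Of the lowered genes 373 code for protein.

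The count of lowered genes depends on depth and on each library. Only 105 of 2830 genes (3.71%) with 20 to 50 labelled counts in DMSO were called lower, against 122 of 727 (16.8%) with 100 to 500, and data simulated for this comparison recovered 17% of 2-fold and 86% of 4-fold changes. Without any one of the 4 libraries, 191 to 217 genes were lower and 1 to 4 higher. Scaling to the human counts (TMM) in place of the spike-in moved the median of all genes up by 0.23 on the log2 scale and gave 286 lower and 62 higher genes, so that 82.2% of calls were lower in place of 96.8%. With TMM on the 4 libraries alone, a setting chosen after seeing the data, 433 were lower and 117 higher (78.7% lower).

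Transcription factors that define the erythroid and megakaryocytic lineage were widely lowered. Of 22 tested members of that list, 17 were lower in labelled RNA and none was higher, beside 4.86% of all genes lower, with a median log2 fold change of -2.49 beside -0.09 for all genes. This list and those below were drawn up with earlier results of these data known. The share of all genes is not matched to a list for depth, so list counts beside it are a description. Counts below are raw and close to comparable, because the spike-in totals of the 4 libraries lie between 1817677 and 1984482. NFE2, the erythroid subunit of the NF-E2 activator of globin genes, had 270 and 249 labelled counts in DMSO and 7 and 5 with A-485, a log2 fold change of -5.50 ± 0.40 (SE) (adjusted p = 1.14e-38). Total NFE2 counts were 2312 and 2335 in DMSO and 970 and 926 with A-485. In both measures the A-485 libraries lay far below the DMSO libraries. GFI1B, a repressor needed for red cell and platelet development, had 57 and 47 labelled counts in DMSO and 0 in both A-485 libraries, at least 36.9-fold lower when 3 counts over the group are taken as the limit. LYL1, a partner of GATA2 and LMO2, had 131 and 68 counts in DMSO and 1 and 4 with A-485, a log2 fold change of -5.33 ± 0.62.

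GATA2, a regulator of stem and progenitor cells, had 347 and 339 labelled counts in DMSO and 59 and 33 with A-485, so the drug libraries kept a readable level at 12.6% of DMSO. The log2 fold change was -2.99 ± 0.25 (adjusted p = 1.40e-28), and total GATA2 fell by 1.42 ± 0.11. MYB, a factor that keeps progenitors dividing, went from 98 and 106 labelled counts to 10 and 2. TAL1, the scaffold of the erythroid activator complex, had 81 and 105 labelled counts in DMSO and 7 and 18 with A-485. LMO2, the bridging protein of that complex, had 75 and 57 in DMSO and 5 and 6 with A-485. For each of these genes both A-485 libraries lay below both DMSO libraries. KLF1, the main activator of adult globin and red cell genes, had 58 and 56 counts in DMSO and 10 and 2 with A-485, and GATA1, the master regulator of the lineage, had 51 and 34 in DMSO and 7 and 4 with A-485. Labelled GATA1 fell by 3.01 ± 0.67 (adjusted p = 3.20e-04), a call that ended without the second A-485 library or the first DMSO library.

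Total RNA of the same list was lower for 13 of 26 tested members, beside 175 of 14572 genes (1.2%) lower and 5 (0.0343%) higher among all genes, and the list's median was -0.43 beside -0.04. Over all genes in total RNA, 71 to 138 were lower without any one of the 4 libraries, and TMM on the 4 libraries gave 327 lower and 64 higher, 83.6% lower in place of 97.2%. Total log2 fold changes were -0.77 ± 0.12 for KLF1, -0.78 ± 0.14 for LMO2, -0.48 ± 0.11 for TAL1, -0.47 ± 0.10 for MYB and -0.42 ± 0.10 for GATA1, nearer to 0 than in labelled RNA for each. Leaving out the second A-485 library left 6 of 26 lower and ended the LMO2 call, and the total calls of TAL1, MYB and GATA1 each ended without either A-485 library or without the second DMSO library. The labelled count of the list was 11 without the second DMSO library and 12 or 13 without another. The LYL1 call in total RNA (a log2 fold change of -0.67 ± 0.12) ended under TMM scaling, under scaling to human totals, under DESeq2's own size factors and without the second A-485 or the first DMSO library. GFI1B was not called lower in labelled RNA by DESeq2.

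**Figure D1:**
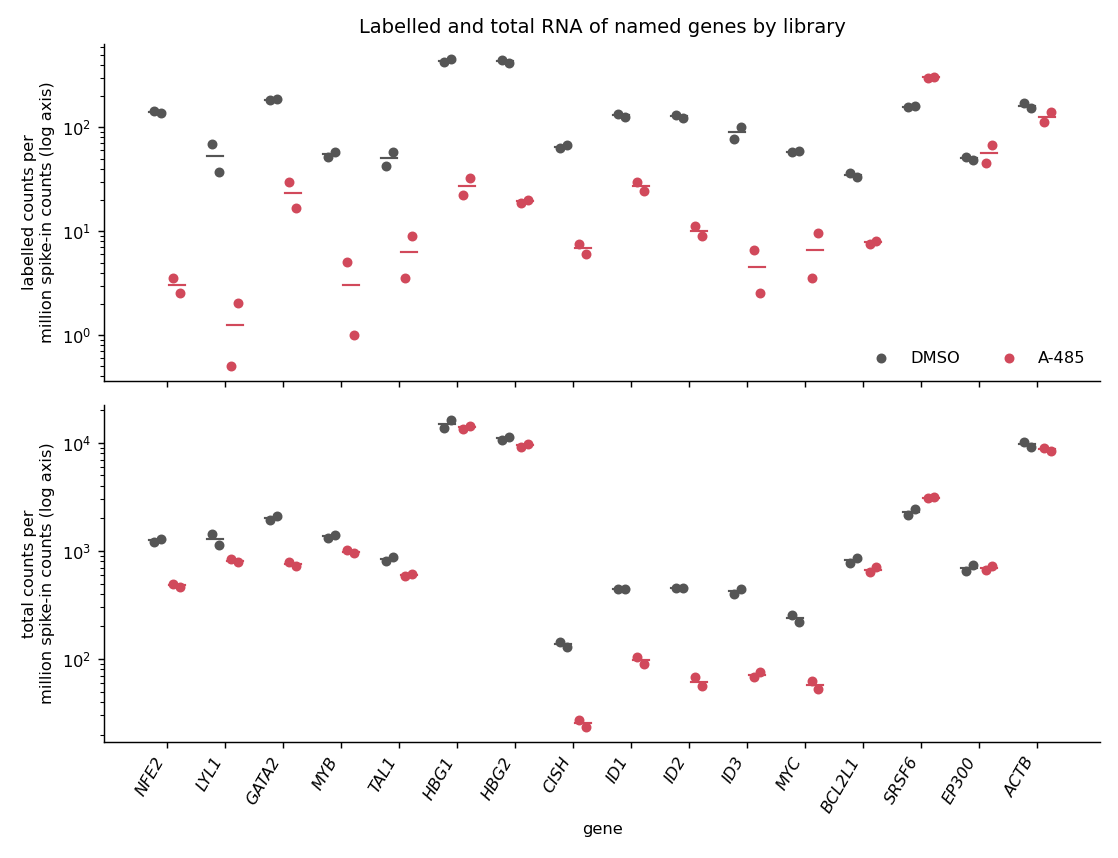
Labelled (top) and total (bottom) counts per 1000000 spike-in counts for 16 named genes in each of the 2 DMSO and 2 A-485 libraries, on log axes; points are libraries and short lines are group means. Labelled levels of the erythroid factors, globins and ID genes separated between groups, total levels of HBG1 and HBG2 stayed close together, and EP300 and ACTB were at similar levels in both groups.

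Promoters of 2 lowered factors are shown because each holds a match to the GATA motif (AGATAA or TGATAA on either strand) close to the start, and GATA factors themselves were among the lowered genes. The sequences are the 250 bases before the start from RefSeq (GRCh38.p14), with GATA and CCAAT matches in capitals. KLF1 is on the minus strand at chr19:12887202-12887451, with a GATA match 66 bases and CCAAT matches 238 and 50 bases before the start. LYL1 is on the minus strand at chr19:13102859-13103108, with a GATA match 27 bases before the RefSeq start. In the gene annotation used for the counts LYL1 starts at 13103161, so its window lies past that start.
KLF1: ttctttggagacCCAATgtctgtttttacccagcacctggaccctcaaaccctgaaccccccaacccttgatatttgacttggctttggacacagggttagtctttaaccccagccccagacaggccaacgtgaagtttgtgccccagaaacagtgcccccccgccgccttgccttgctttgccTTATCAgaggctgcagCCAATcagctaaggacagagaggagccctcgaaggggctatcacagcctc
LYL1: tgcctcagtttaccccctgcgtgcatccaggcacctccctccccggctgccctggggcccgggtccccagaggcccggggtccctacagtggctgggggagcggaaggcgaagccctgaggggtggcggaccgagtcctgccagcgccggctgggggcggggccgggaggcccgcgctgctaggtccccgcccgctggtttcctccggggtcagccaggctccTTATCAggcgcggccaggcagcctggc
Among 22114 genes with a single promoter entry, 15.6% held such a GATA match in the same window and 33.4% held a CCAAT match on either strand. A match in letters is not a bound site, and the windows of GATA1 and MYB, also lowered, held no GATA match. Of the 389 lowered genes 50.1% had a single promoter entry and of the tested genes not called 56.1%, so a comparison of motif shares between these sets is void. Among those with an entry a GATA match was in 6.15% of lowered and 5.40% of uncalled genes, and both shares are below that of all promoters.

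Labelled fetal globin RNA fell steeply, while total globin RNA was not called. K562 cells make fetal and embryonic hemoglobin, and HBG1 and HBG2 encode the fetal gamma chain. HBG1 (chr11:5248079-5249859, hg38) had 808 and 823 labelled counts in DMSO and 44 and 64 with A-485. HBG2 had 850 and 762 in DMSO and 37 and 40 with A-485. The drug libraries of both genes stood at 6.22% and 4.49% of DMSO, log2 fold changes of -4.01 ± 0.23 and -4.47 ± 0.25 (adjusted p = 4.78e-62 and 5.75e-70). Total HBG1 counts were 26080 and 29526 in DMSO and 26402 and 28674 with A-485, and the log2 fold changes in total RNA were -0.11 for HBG1 and -0.21 for HBG2, neither called (93.0% and 86.6% of DMSO). The 2 genes are near-identical copies, so the split of reads between them is uncertain.

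Of 20 tested globin and heme synthesis genes, 9 were lower in labelled RNA and none higher (median -1.04, beside 4.86% of all genes lower), and none of 29 was called in total RNA by edgeR or DESeq2 (4 lower at an unadjusted p under 0.05). FTL, the light chain of the iron store ferritin, had 790 and 787 labelled counts in DMSO and 300 and 336 with A-485, a log2 fold change of -1.40 ± 0.18, and the heavy chain gene FTH1 fell by 1.11 ± 0.20. Outside the list, BLVRB, an enzyme of heme breakdown, had 65 and 77 labelled counts in DMSO and 6 and 0 with A-485, while its total counts (12467 and 12561 in DMSO, 12551 and 13196 with A-485) overlapped when scaled. TFRC, the transferrin receptor, fell by 0.86 ± 0.23 in labelled RNA, a call that ended without any one library and under TMM scaling. Of 10 tested red cell membrane genes 5 were lower in labelled RNA (median -1.36, against the same 4.86%), among them GYPC, SLC2A1, ANK1 and RHAG, and none of 28 was called in total RNA by edgeR or DESeq2 (3 lower at an unadjusted p under 0.05). That count was 2 without the first library of either group and 0 without the second. MPP1, which is outside that list and encodes a palmitoylated membrane protein of the red cell, had 191 and 154 labelled counts in DMSO and 13 and 7 with A-485, a log2 fold change of -4.18 ± 0.39.

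K562 cells carry BCR-ABL, which keeps STAT5 active, and the targets of STAT5 and cytokine signalling formed the next group, which also counts ID1. Of 13 tested members 10 were lower in labelled RNA (median -2.12) beside 4.86% of all genes, and 6 of 19 were lower in total RNA beside 1.2%. CISH, a feedback inhibitor of cytokine receptors, had 121 and 122 labelled counts in DMSO and 15 and 12 with A-485. Its total counts were 275 and 234 in DMSO and 54 and 47 with A-485, so both the new and the whole CISH pool were lower, with log2 fold changes of -3.25 ± 0.42 and -2.42 ± 0.25 (adjusted p = 3.01e-12 and 9.84e-09). SOCS2, of the same inhibitor family, fell by 2.12 ± 0.43 in labelled RNA, a call that ended without the first A-485 library, and total SOCS2 fell by 0.91 ± 0.15. The survival kinase PIM1 had 158 and 68 labelled counts in DMSO and 11 and 8 with A-485, and its total counts of 1401 and 966 against 411 and 420 did not pass the edgeR test (adjusted p = 0.0926). Total PIM1 was called lower under 6 of 13 alternatives, both DESeq2 fits among them. In labelled RNA, PIM2 fell by 1.60 ± 0.23 and PIM3 fell by 0.86 ± 0.27. The PIM3 call ended under TMM scaling, without the low-count filter and without either A-485 library or the first DMSO library.

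BCL2L1, which encodes the survival protein BCL-XL, had 69 and 61 labelled counts in DMSO and 15 and 16 with A-485, a log2 fold change of -2.15 ± 0.50 (adjusted p = 6.44e-04). Its total counts were 1478 and 1559 in DMSO and 1257 and 1396 with A-485, and were not called. MCL1, another survival gene of that family, gave overlapping labelled counts of 220 and 152 in DMSO and 134 and 181 with A-485, and a log2 fold change of -0.42 ± 0.11 in total RNA that was lost without any one library. Labelled SOCS1 was too low to test, with 2 and 4 counts in DMSO and 1 and 0 with A-485. The list's labelled count was 6 without the first A-485 library and 7 or 8 without another, and its total count was 3 or 4 without any one of the 4 libraries.

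The CISH promoter is shown because the gene is a textbook STAT5 target and its window holds 4 matches to the STAT motif TTCNNNGAA, in capitals, which begin 241, 230, 129 and 112 bases before the start. It lies on the minus strand at chr3:50611775-50612024 (RefSeq, GRCh38.p14).
CISH: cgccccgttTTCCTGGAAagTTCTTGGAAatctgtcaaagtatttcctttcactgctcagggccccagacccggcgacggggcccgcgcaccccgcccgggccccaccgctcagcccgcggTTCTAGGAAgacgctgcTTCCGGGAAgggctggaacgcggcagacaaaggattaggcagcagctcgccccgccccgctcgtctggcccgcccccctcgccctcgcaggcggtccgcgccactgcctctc
Of the 22114 single promoter entries, 7.02% held at least 1 such match, as did 8.21% of lowered and 5.80% of uncalled tested genes with an entry. A comparison of these last sets is void for the reason given with the GATA matches.

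In the list of SMAD, ID and Notch feedback genes, ID1, ID2, ID3 and HES1 fell in both labelled and total RNA. ID proteins bind basic helix-loop-helix factors and block their contact with DNA, and their mRNAs are short-lived targets of BMP signalling. ID2 had 250 and 224 labelled counts in DMSO and 22 and 18 with A-485, and total counts of 855 and 817 against 133 and 111. With A-485 this left 7.92% of the labelled and 13.7% of the total level, and total ID2 fell by 2.87 ± 0.17. ID3 had 148 and 183 labelled counts in DMSO and 13 and 5 with A-485, and its total counts went from 752 and 815 to 133 and 150. ID1 had 258 and 230 labelled counts in DMSO and 59 and 48 with A-485, a log2 fold change of -2.28 ± 0.26, and its total RNA fell by 2.18 ± 0.15, a similar amount. HES1, a repressor induced by Notch, had log2 fold changes of -2.42 ± 0.44 in labelled and -2.32 ± 0.34 in total RNA. Of the whole list 6 of 14 tested members were lower in labelled RNA (median -2.12) and 8 of 19 in total RNA (median -0.61), none higher, beside 4.86% and 1.2% of all genes. These counts were 4 in labelled RNA without any one library, and 4 in total RNA without the second library of either group.

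The ID1 promoter is given because it differs from those above in holding a TATAAA match, 31 bases before the start, together with a CCAAT match (read as ATTGG), both in capitals. It lies on the plus strand at chr20:31605039-31605288 (RefSeq, GRCh38.p14), and TATAAA on either strand was in 7.72% of all single promoter entries, 8.21% of those of lowered genes and 2.89% of those of uncalled tested genes. Only 50.1% of lowered and 56.1% of uncalled tested genes have an entry, so a comparison of these last sets is void, as above.
ID1: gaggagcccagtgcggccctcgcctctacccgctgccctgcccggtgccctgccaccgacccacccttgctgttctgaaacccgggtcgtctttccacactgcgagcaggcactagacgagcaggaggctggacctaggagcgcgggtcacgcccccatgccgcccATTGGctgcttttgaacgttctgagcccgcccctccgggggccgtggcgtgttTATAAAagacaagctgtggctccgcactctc

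Immediate early genes, which respond to growth signals within minutes and have unstable mRNAs, were split. Of 34 tested members 14 were lower in labelled RNA, 1 was higher and 19 were not called (median -1.02, beside 4.86% of all genes lower), and 16 of 42 were lower in total RNA (median -0.60, beside 1.2%), or 9 to 11 without any one of the 4 libraries. Labelled IER3, a stress and survival gene, was 431 and 368 in DMSO and 97 and 106 with A-485. JUN, a subunit of the AP-1 factor, had 93 and 60 in DMSO and 26 and 22 with A-485, and total JUN fell by 1.53 ± 0.22. The labelled call of JUN ended without the second A-485 library or the first DMSO library. Labelled MIDN fell by 2.00 ± 0.25 and IER2 fell by 1.08 ± 0.19. EGR1, a zinc finger factor that is a standard marker of this response, had 182 and 112 labelled counts in DMSO and 267 and 255 with A-485, a rise of 0.74 ± 0.23 (adjusted p = 0.0257), which was lost without the low-count filter and without 3 of the 4 libraries. Of 15 tested CREB targets, genes named for the first partner known for CBP, 1 was lower (PER1, a call that ended without the second library of either group) and 1 was higher (EGR1).

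MYC, the growth-promoting factor, had 109 and 108 labelled counts in DMSO and 7 and 19 with A-485, a log2 fold change of -3.14 ± 0.45 (adjusted p = 3.80e-10). Its total counts were 481 and 402 in DMSO and 124 and 104 with A-485, a log2 fold change of -2.04 ± 0.19. Every A-485 library was below every DMSO library. In the list of MYC targets and ribosome biogenesis genes, to which MYC itself was assigned, MYC was the only labelled call among 55 tested members, and the list's median was 0.04.

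**Figure D2:**
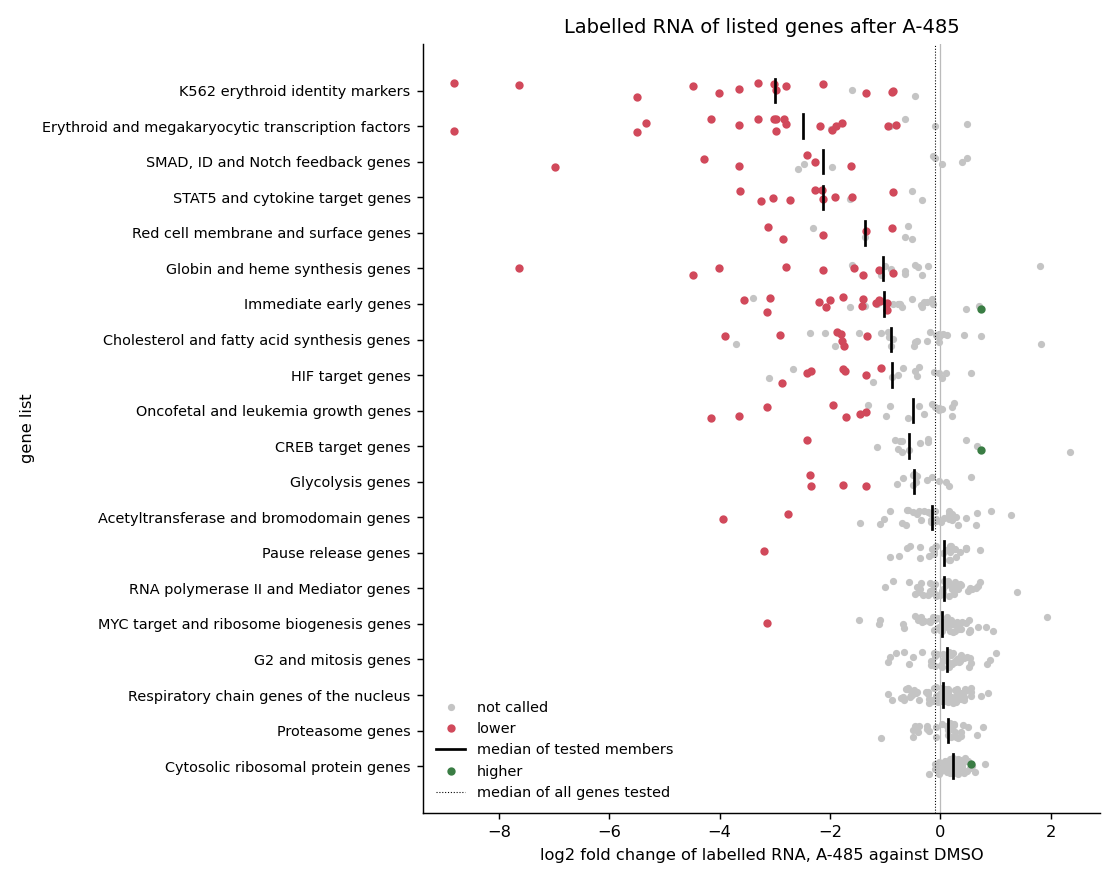
Log2 fold change of labelled RNA, A-485 against DMSO, for the tested members of 20 gene lists; points are genes, red and green mark members called lower and higher, black ticks are list medians and the dotted line is the median of all tested genes. The lists of erythroid identity markers, erythroid transcription factors, ID genes and STAT5 targets have medians below -2. The globin and heme list has a median of -1.04 and the red cell membrane list -1.36. The proteasome and ribosomal protein lists have medians of 0.14 and 0.22.

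The metabolic and signalling lists are read against the same shares of all genes, 4.86% lower in labelled and 1.2% in total RNA. Of 31 tested cholesterol and fatty acid synthesis genes 7 were lower in labelled RNA (median -0.90) and 3 of 35 in total RNA. FADS1, a fatty acid desaturase, had 264 and 261 labelled counts in DMSO and 21 and 16 with A-485, a log2 fold change of -3.91 ± 0.34, with a total log2 fold change of -0.24 that was called only with the replicate block and with TMM on 4 libraries. INSIG1, a brake on sterol synthesis, had log2 fold changes of -1.86 ± 0.31 in labelled and -0.76 ± 0.12 in total RNA. Of 21 tested HIF targets 7 were lower in labelled RNA (median -0.87) and 5 of 28 in total RNA, among them the glucose transporter SLC2A3, whose labelled counts were 87 and 81 in DMSO and 24 and 11 with A-485. The HIF counts were 4 and 3 without the second DMSO library. Among 18 tested glycolysis genes 4 were lower (median -0.47). PKM, the last enzyme of the pathway, had 419 and 505 labelled counts in DMSO and 84 and 108 with A-485, a log2 fold change of -2.36 ± 0.22 beside a total log2 fold change of -0.06.

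Of 22 oncofetal and leukemia growth genes 7 were lower in labelled RNA, or 4 without the second A-485 library. The tumor antigen gene PRAME had 1697 and 1814 labelled counts in DMSO and 726 and 751 with A-485, a log2 fold change of -1.34 ± 0.16. HSPB1, a small heat shock protein gene, fell by 1.41 ± 0.21, and with HSPA1A, whose call ended under TMM scaling and without the first library of either group, 2 of 31 heat shock genes (6.45%) were lower beside 4.86% of all genes. HSPA1A has a near-identical copy, so its reads are uncertain. Of 13 tested NF-kB genes 3 were lower in labelled RNA, and at most 1 without any one library. Of 11 tested interferon response genes 3 were lower, or 1 without the first DMSO library, and 3 of 27 in total RNA. IRF1, the interferon regulator, fell by 1.85 ± 0.28 in total RNA. Integrated stress and unfolded protein response genes were lower in 3 of 30 cases, or 1 without the second DMSO or the first A-485 library. Among them PPP1R15A, the phosphatase subunit that ends the stress response, was at 129 and 134 labelled counts in DMSO and 21 and 40 with A-485, a call that ended under DESeq2 with spike-in size factors.

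In lists of the transcription machinery and of basic cell growth the share of lowered members was near or below the 4.86% of all tested genes. CREBBP had 31 and 43 labelled counts in DMSO and 44 and 36 with A-485, and EP300 had 99 and 88 in DMSO and 89 and 133 with A-485. The libraries overlapped for both, and total counts of 1235 and 1360 (DMSO) against 1309 and 1428 (A-485) for EP300 gave a log2 fold change of -0.02. BRD2, a bromodomain protein gene, was not called in either measure, nor was HEXIM1, the inhibitor of the elongation kinase P-TEFb, with 47 and 90 labelled counts in DMSO and 49 and 38 with A-485. Of 38 tested acetyltransferase and bromodomain genes 2 (5.26%) were lower, CITED2 and HDAC7. CITED2, which competes for a protein-binding domain of CBP and p300, had 42 and 33 labelled counts in DMSO and 0 and 5 with A-485, and total counts of 173 and 168 against 41 and 38, a total log2 fold change of -2.20 ± 0.32 (adjusted p = 1.13e-05). Its labelled call ended under DESeq2 with spike-in size factors. HDAC7, a deacetylase, had 76 and 72 labelled counts in DMSO and 10 and 13 with A-485.

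Of 28 tested pause release genes 1 (3.57%) was lower in labelled RNA, AFF1, a scaffold of the super elongation complex, a call that ended without the second A-485 or the first DMSO library. None of 46 RNA polymerase II and Mediator genes was called, and none of 71 nuclear-encoded respiratory chain, 31 proteasome, 43 mitotic or 11 mitochondrially encoded genes. That holds for edgeR and both DESeq2 fits on labelled RNA, and at an unadjusted p under 0.05 edgeR gave 1 lower and 1 higher polymerase or Mediator gene, 1 higher respiratory chain gene, 1 lower proteasome gene, 1 lower mitochondrially encoded gene and 0 mitotic genes. Fits on the 4 libraries alone, with spike-in or TMM scaling, called 1 polymerase or Mediator gene higher, the TMM fit also called 3 respiratory chain genes higher, and 1 mitochondrially encoded gene was called lower with spike-in scaling on 4 libraries and without the second A-485 library. Of 76 cytosolic ribosomal protein genes 1 was higher (RPLP0), and the list's labelled median was 0.22, staying positive under each scaling, with 11 members higher under TMM and 17 with TMM on 4 libraries. The RPLP0 call was lost without any one library. The reference gene ACTB was not called in labelled RNA under any setting. GAPDH was not called by edgeR on all 10 libraries but was called lower with DESeq2's own size factors and in the fit on 4 libraries: its labelled counts were 279 and 261 in DMSO and 202 and 210 with A-485, and its total log2 fold change was -0.08.

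Outside the lists, the largest falls reached near or complete loss of labelled counts. KRT19, an epithelial keratin gene that K562 expresses, had 96 and 62 labelled counts in DMSO and 1 and 0 with A-485, a ratio of 168 with an exact 95% interval of 29.8 to 6688 that covers counting error only. Its total counts (3556 and 3483 in DMSO, 2962 and 3025 with A-485) did not overlap and were not called lower, except under human total scaling, the replicate block and TMM on 4 libraries. ZNF467, a zinc finger gene, had 36 and 64 labelled counts in DMSO and 0 in both A-485 libraries, at least 35.5-fold lower. The long noncoding RNA ENSG00000264066 had 148 and 194 labelled counts in DMSO and 1 and 2 with A-485, a ratio of 121 (interval 41.2 to 592), and its total counts fell from 276 and 395 to 16 and 10, a log2 fold change of -4.77 ± 0.37. Labelled log2 fold changes were -5.04 ± 0.60 for the retinaldehyde reductase gene DHRS3, -4.68 ± 0.78 for the glycosyltransferase gene GALNT5, -4.40 ± 0.50 for the neuropeptide gene NMU and -4.10 ± 0.27 for the phospholipid-binding annexin gene ANXA1. DESeq2 with spike-in size factors did not call GALNT5 or ZNF467.

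Few genes were called higher under spike-in scaling, and few of those calls were stable. SRSF6, a splicing regulator of the SR family, had 296 and 293 labelled counts in DMSO and 587 and 611 with A-485, a rise of 0.93 ± 0.19 on the log2 scale (adjusted p = 7.01e-05). Its total counts rose from 4109 and 4447 to 6113 and 6228, by 0.44 ± 0.11, a call lost without any one library. The small nucleolar RNA host gene SNHG12 rose by 0.52 ± 0.16 in labelled and 0.53 ± 0.11 in total RNA, with 612 and 574 labelled counts in DMSO and 890 and 921 with A-485. Its labelled call ended without any one of the 4 libraries, and its total call without the first library of either group. SNHG12 is annotated as antisense, and the strand setting of the authors' counting was not known. Labelled SNHG25, another host gene, rose by 0.63 ± 0.16, a call that ended without the second library of either group. Rises of DNM1L (17 and 17 to 55 and 53), CCDC90B, SLC25A4, EIF4G2 and HMGN2 were each lost when any one library was left out. Among the named genes higher in labelled RNA, SRSF6 alone was called in all 13 alternative settings. The processed pseudogene ENSG00000235377, named after its values were seen, had 0 labelled counts in DMSO and 11 and 13 with A-485, at least 7.51-fold higher, and, like SRSF6 and SNHG12, was called higher in both measures. JQ1 libraries held 6 and 5 counts of it, and reads of a processed pseudogene may belong to its parent gene.

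Whether a fall in labelled RNA was also seen in total RNA differed with the labelled share of the gene in DMSO. Of the 389 genes lower in labelled RNA, 117 (30.1%) were also lower in total RNA, none was higher, and the median total log2 fold change was -0.33. From the other side, 165 of the 175 genes lower in total RNA could be tested in labelled RNA, 117 of them were lower there (66.9% of the 175), and all 165 had a negative labelled log2 fold change. The labelled share of a gene, its labelled counts as a percentage of total counts in DMSO, is higher for mRNAs that are replaced faster. When the 389 genes were placed in 4 equal groups by this share, 2 of 98 were lower in total RNA in the lowest group, 12 of 97 and 40 of 97 in the next 2, and 63 of 97 in the highest. The median total log2 fold change went from -0.15 through -0.27 and -0.43 to -1.08, while the median labelled log2 fold change stayed between -2.38 and -1.90. DMSO libraries enter both axes and labelled counts are a part of total counts, so this is given as a description. Turnover itself was not measured. Across all 10409 genes with at least 50 total counts in DMSO, 122 of 2082 genes (5.86%) in the highest of 5 bins of labelled share were lower in total RNA and 1 of 2081 in the lowest.

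**Figure D3:**
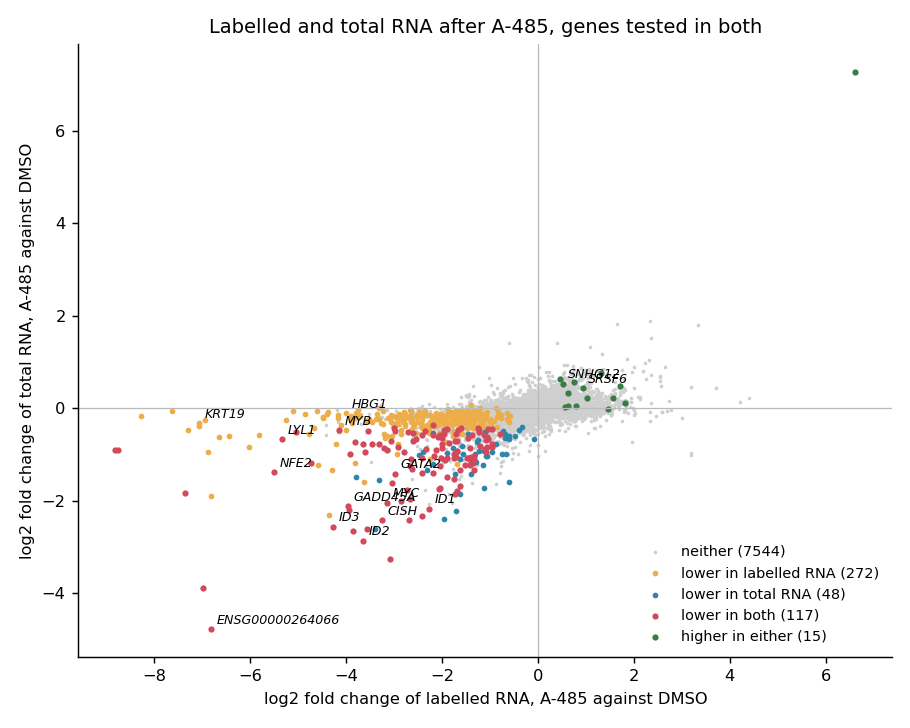
Log2 fold change of total RNA against that of labelled RNA, A-485 against DMSO, for the 7996 genes tested in both; colours mark calls, with 272 genes lower in labelled RNA only, 48 in total RNA only, 117 in both and 15 higher in either. ID2, ID3, ID1, CISH and MYC lie low on both axes, HBG1 and KRT19 only on the horizontal axis.

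**Figure D4:**
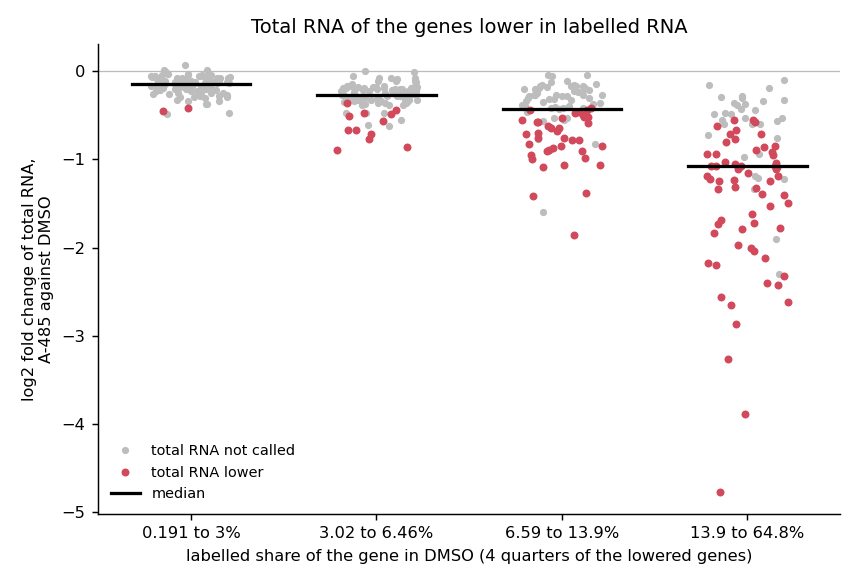
Total log2 fold change of the 389 genes lower in labelled RNA, in 4 equal groups by labelled share in DMSO (horizontal axis, percent of total counts); points are genes, red marks genes lower in total RNA and lines are medians. The medians go from -0.15 in the lowest group to -1.08 in the highest.

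The labelled share was tested directly by fitting labelled and unlabelled counts together. It was lower for 210 of 7960 genes (2.64%) and higher for 2 (0.0251%), and 197 of the 387 tested genes lower in labelled RNA were among the former. HBG1 had a labelled share of 3.10% and 2.79% in DMSO and 0.167% and 0.223% with A-485, and the share fell by 3.95 ± 0.24 on the log2 scale (adjusted p = 2.98e-24). The NFE2 share was 11.7% and 10.7% in DMSO and 0.722% and 0.540% with A-485. For ID1 it was 30.9% and 28.7% in DMSO and 28.6% and 26.7% with A-485. Labelled and unlabelled ID1 counts were thus lower by similar factors, and the share was not called (log2 fold change -0.15). CISH kept 27.8% and 25.5% labelled with A-485 against 44% and 52.1% in DMSO, and was not called. Without any one library 63 to 115 genes had a lower share.

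A-485 and JQ1 were given at the same concentration of 1 µM for the same 2 h, and their labelled libraries were compared directly. JQ1 libraries held 64.7% of the DMSO level per spike-in count, beside 91.4% with A-485. Of 7996 genes, 1984 (24.8%) were higher with A-485 than with JQ1 and 251 (3.14%) lower, with a median log2 difference of 0.72. This split follows the scaling: under TMM, which sets the libraries' human counts level and moved the median to 0.09, 507 genes were higher and 596 lower, and under DESeq2's own size factors 323 were higher and 572 lower.

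The ID genes were lower with A-485 than with JQ1. Labelled ID3 was 138 and 151 in JQ1 libraries beside 13 and 5 with A-485 and 148 and 183 in DMSO, a difference of -3.86 ± 0.39 (adjusted p = 4.77e-20). ID1 was 272 and 220 with JQ1, close to its 258 and 230 in DMSO, and 59 and 48 with A-485. Labelled GATA2 gave 236 and 197 counts in JQ1 libraries against 59 and 33 under A-485, and NFE2 was 34 and 31 against 7 and 5, both called. Of the 22 erythroid factors 3 were lower with A-485 than with JQ1 and 2 were higher. TAL1 (20 and 18 with JQ1, 7 and 18 with A-485) and MYC (40 and 6 against 7 and 19) had overlapping libraries and were not called. At these counts the MYC difference was -0.68 ± 0.51 (SE), so a difference of either sign remains possible.

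Histone genes and HEXIM1 stood highest in the JQ1 libraries. Of 15 tested replication-dependent histone genes (62 listed) 13 were lower with A-485 than with JQ1 (median -3.59), beside 3.14% of all genes. Genes were tested if any 2 of the 10 libraries held 10 counts, and members such as H4C15 passed through JQ1, where they are high. The filter thus partly set the count of 13, which is given as a description. Against DMSO, H3C10 and H2BC21 were lower with A-485, but the H3C10 call ended without either A-485 library or the second DMSO library, the H2BC21 call ended in 5 settings, and none of the list was called without the first A-485 library. H3C10 had 24 and 47 labelled counts in DMSO, 9 and 11 with A-485 and 146 and 133 with JQ1, and H4C15 had 6 and 4, 10 and 1, and 119 and 124. Histone genes are near-identical copies and normally lack a poly(A) tail, so which copy the reads came from is uncertain. HEXIM1, which is known to rise under BET inhibition, had 198 and 260 labelled counts with JQ1 and 49 and 38 with A-485, a difference of -2.27 ± 0.30. MIDN had 480 and 387 counts with JQ1 and 53 and 57 with A-485. Immediate early genes were lower with A-485 than with JQ1 for 13 of 34 tested members, and STAT5 targets for 7 of 13, beside 3.14% of all genes.

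In the other direction, MIR223HG, the host gene of a myeloid microRNA, had 126 and 89 labelled counts in DMSO, 9 and 26 with A-485 and 3 and 3 with JQ1. Its call against JQ1 ended under DESeq2's own size factors and without the second A-485 library. Like SNHG12, MIR223HG is annotated as antisense, and the strand setting of the authors' counting was not known. RPS24, a ribosomal protein gene, had 727 and 794 in DMSO, 815 and 946 with A-485 and 336 and 408 with JQ1. MRPL3, which encodes a mitochondrial ribosomal protein, had 41 and 68 in DMSO, 78 and 68 with A-485 and 2 and 8 with JQ1, and DNPH1 had 60 and 71, 106 and 131, and 9 and 11. MRPL3 and DNPH1 were higher with A-485 than with JQ1 under all 13 alternative settings. Among ribosomal protein genes 57 of 76, and among MYC targets and ribosome biogenesis genes 35 of 55, were higher with A-485 than with JQ1 under spike-in scaling, beside 24.8% of all genes. The list medians were 0.92 and 1.15 beside 0.72 for all genes. The share of all genes is not matched to these lists for depth, so the counts are a description.

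**Figure D5:**
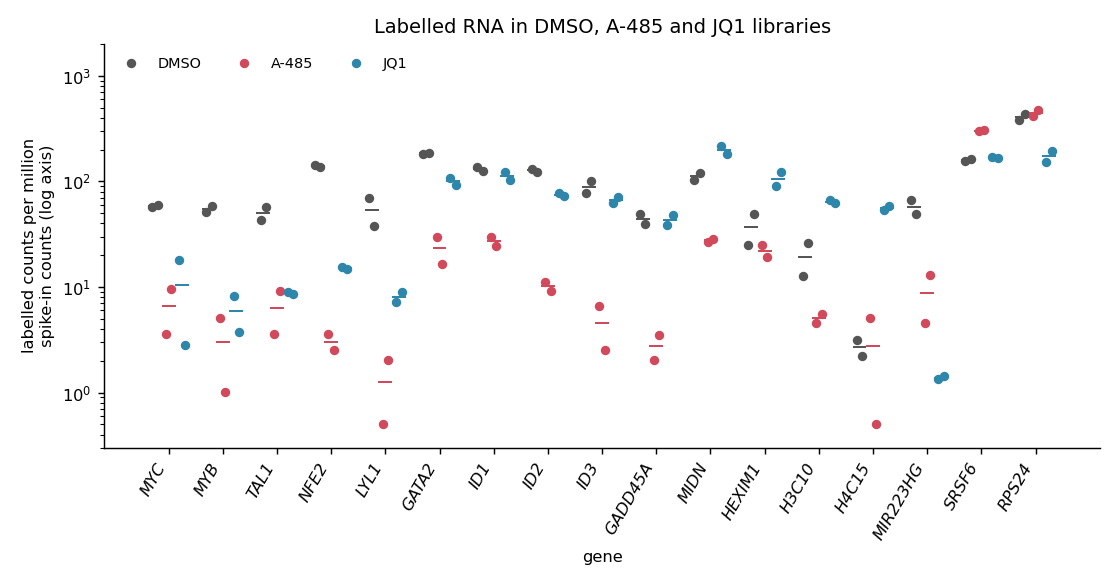
Labelled counts per 1000000 spike-in counts of 17 named genes in the 2 DMSO, 2 A-485 and 2 JQ1 libraries, on a log axis; points are libraries and short lines are group means. In ID1, ID2, ID3 and GADD45A the A-485 libraries lie below those of both other groups, in MYC, MYB and TAL1 the libraries of both drugs lie below DMSO, and in H3C10, H4C15 and HEXIM1 the JQ1 libraries lie above the rest.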

How the data were processed

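Human reads were deposited by the authors as whole-number counts per gene in 3 tables (labelled human, total human and Drosophila spike-in), with gene identifiers matched here to GENCODE 29 names (55838 of 59204). Trim Galore 0.6.5, bcl2fastq 2.17.1.14 and bedtools, with builds hg38 and dm6, are listed in the submitters' processing notes. For the aligner, the T-to-C threshold and the strand setting, the entry is: not given in the sources used here. Libraries were made by a 3′ end kit from RNA with 5% Drosophila S2 RNA added, per the labels' protocols. The deposited labelled counts were 411716 to 448401 per DMSO or A-485 library, and the total counts 15507311 to 16825319.

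Genes that reached 10 counts in 2 or more libraries were fitted over all 10 libraries with edgeR 4.0.16 (robust quasi-likelihood test, R 4.3.3, limma 3.58.1), with the spike-in totals as library sizes and Benjamini-Hochberg adjusted p under 0.05 as the call. All adjusted p-values in the text are edgeR's unless another tool is named. The labelled share was tested as labelled against unlabelled counts with a term per library. Standard errors are the log2 fold change divided by the square root of F. The fits were tested on simulated data. Folds against a group at 0 use 3 counts over the group as the limit. Alternatives were TMM, human total and DESeq2 1.42.0 scaling, other filters, 4 libraries only, a replicate block and leaving out each library. Other scripts used Python 3.11.15 and pandas 2.3.3.

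Named genes were a panel of 26, the 15 largest non-overlapping calls in each direction with a mean of at least 50 labelled or 100 total counts, 6 for the share and for JQ1, and up to 4 called members per list (2 where none was called). Members, lists and named genes were chosen with earlier results of these data known.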

Additional observations from a re-analysis of the deposited data

How the results depend on the processing

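Of the results for labelled RNA against DMSO, 1749 comparisons with an alternative kept direction and side of the threshold, 179 lost the call and 18 gained one. The numbers were 1880, 103 and 46 for total RNA, and 967, 47 and 23 for the labelled share. For A-485 against JQ1 they were 1716, 122 and 70, and 22 changed sign. Depth limits the labelled tests, which recovered 17% of simulated 2-fold changes in genes with a mean of at least 20 labelled counts in DMSO. Leaving out a library leaves 1 sample in its group, which is assumed to vary like the other groups. Where a count changed, the cause was not tested.

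Without any one library, labelled RNA was lower for 191 to 217 genes (389 with all) and higher for 1 to 4 (13), total RNA was lower for 71 to 138 (175) and higher for 0 to 3 (5), the share was lower for 63 to 115 (210) and higher for 0 to 1 (2), and 143 to 167 (251) were lower and 889 to 1441 (1984) higher with A-485 than with JQ1. The genes called in every one of these fits numbered 127 of 389 in labelled RNA, 60 of 175 in total RNA and 45 of 210 for the share. Under TMM scaling 62 genes were higher in labelled and 13 in total RNA, and against JQ1 596 were lower and 507 higher. Scaling to human totals gave 10 higher in total RNA. DESeq2's own size factors gave 18 higher in total RNA, and 572 lower and 323 higher against JQ1. With no low-count filter 3 were higher in labelled and 8 in total RNA, and the 30-count filter gave 11 genes with a higher share. A fit on 4 libraries gave 57 higher in labelled RNA, 290 lower and 24 higher in total RNA, and 18 with a higher share. TMM on 4 libraries, chosen after seeing the data, gave 117 higher in labelled RNA, 327 lower and 64 higher in total RNA, and 623 lower and 388 higher against JQ1.

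With the replicate block, 344 genes were lower and 9 higher in labelled RNA, 253 lower and 13 higher in total RNA, 203 lower and 0 higher in share, and 214 lower and 1767 higher against JQ1. The labels tie the replicate numbers to nothing shared. Deviations of same-numbered DMSO and A-485 libraries correlated at 0.00254 in labelled and 0.00886 in total counts. Over all 10 pairs of groups the correlation was -0.00629 to 0.0411 in labelled counts, with 0 pairs over 0.1. In total counts it was -0.0314 to 0.163, with 5 pairs over 0.1. Total counts per spike-in count were also higher in the second library of every group. The main fits assumed no pairing for either measure, and whether same-numbered libraries share an effect in total counts was not tested. The block lowered the biological coefficient of variation in total counts from 10.9% to 8.89%.

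Differences from JQ1 that were positive under spike-in scaling turned negative as follows. Under TMM the log2 difference was -0.03725 for RPLP0, -0.13 for ZBTB7A, -0.0262 for POLR2J, -0.56 for MT-ND2 and -0.46 for MT-CYB. Under DESeq2's own size factors it was -0.59 for EGR1, -0.52 for EIF4G2, -0.12 for RPLP0, -0.22 for ZBTB7A, -0.12 for POLR2J, -0.0548 for ATP5MG, -0.65 for MT-ND2 and -0.55 for MT-CYB. Under TMM on 4 libraries it was -0.57 for EGR1, -0.51 for EIF4G2, -0.11 for RPLP0, -0.21 for ZBTB7A, -0.10 for POLR2J, -0.47 for ATP5F1B, -0.0422 for ATP5MG, -0.63 for MT-ND2 and -0.53 for MT-CYB.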

Other observations

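The positions of genes lower in labelled RNA with A-485 were compared. Of 233 lowered genes with another tested gene starting within 100 kb, 57 (24.5%) had a lowered gene among those neighbours, and of all 5654 tested genes with a tested neighbour 588 (10.4%) did. The pairs and groups, named after their values were seen, include NFE2 with ZNF385A and ITGA5, HOXB2 with HOXB4 and HOXB9, KRT8 with KRT18, LYL1 with IER2, and KLF1 with JUNB. Neighbouring genes share depth and region, and no test of this share was made.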
